A study of Mus musculus with 6 samples.

Results

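The nuclear receptors are a family of transcription factors that bind small lipophilic ligands such as retinoic acid, vitamin D, steroids and oxysterols, and 40 of their genes were examined here in epidermal keratinocytes of Med1 KO and control (CON) mice. The members were given as a list of symbols that does not cover the whole family (Pparg, the clock receptors and the immediate early Nr4a1 are among those left out), and every probe that carries 1 of the symbols was taken. Of the 40 genes, 37 had at least 1 probe on the bead array, with 58 probes in all, out of 16593 named genes on the array. Nr1h2, Nr3c2 and Nr2e3 are not analysed here because no probe carried their symbols. KO mice were homozygous for floxed Med1 and carried Cre under the keratin K14 promoter, and CON mice were Med1 fl/fl without Cre. Both groups had the C57BL6 background and were 10 wk old. Each group had 3 arrays (n = 3) of keratinocytes from the skins of 2 mice, and nothing states which arrays share a mouse, so p-values measure only the spread between these arrays, which may be partly technical. The transgene deletes Med1 where K14 is active, so other cells in the preparation keep the gene. Per the study, KO skin had moved towards anagen, the growing phase of the hair cycle, while CON skin was in telogen, so hair cycle phase and genotype cannot be told apart.

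Most nuclear receptors have a zinc finger DNA-binding domain and a ligand-binding domain. Among the members here, Nr0b1 and Nr0b2 lack the DNA-binding domain. Once a ligand is bound, the receptor exchanges corepressors for coactivators. MED1 is the Mediator subunit known to contact ligand-bound nuclear receptors through its LXXLL motifs, which links them to RNA polymerase II. Many receptors, among them those for retinoic acid, vitamin D, thyroid hormone, fatty acids and oxysterols, bind DNA as heterodimers with a retinoid X receptor. In skin, the vitamin D receptor and RXRα are known for their need in the hair cycle, and retinoids, vitamin D and glucocorticoids for their effects on epidermal growth and differentiation.

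The 3 members whose level passed the test below were Rarg, Nr1h3 and Nr4a2, and the 250 bases before their most upstream RefSeq start (GRCm38.p6) are shown because these are the members that the results turn on. Capitals mark AGGTCA, the core motif of many nuclear receptor sites, TGACG, the core of the cAMP response element, and TATAAA, each on either strand, and no 2 marked stretches overlap. The Rarg window is chr15:102257523-102257772 on the minus strand, that of Nr1h3 chr2:91195117-91195366 on the minus strand, and that of Nr4a2 chr2:57124004-57124253 on the minus strand.
Rarg: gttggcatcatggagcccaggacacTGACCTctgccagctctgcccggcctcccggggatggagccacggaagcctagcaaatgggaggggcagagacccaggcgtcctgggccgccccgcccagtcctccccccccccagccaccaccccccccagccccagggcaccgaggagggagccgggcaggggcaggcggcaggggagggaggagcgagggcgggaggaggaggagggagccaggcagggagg
Nr1h3: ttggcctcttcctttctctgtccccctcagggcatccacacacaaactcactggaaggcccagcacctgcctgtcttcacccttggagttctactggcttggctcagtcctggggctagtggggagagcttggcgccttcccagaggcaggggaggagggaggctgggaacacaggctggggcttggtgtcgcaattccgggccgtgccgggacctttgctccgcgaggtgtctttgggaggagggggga
Nr4a2: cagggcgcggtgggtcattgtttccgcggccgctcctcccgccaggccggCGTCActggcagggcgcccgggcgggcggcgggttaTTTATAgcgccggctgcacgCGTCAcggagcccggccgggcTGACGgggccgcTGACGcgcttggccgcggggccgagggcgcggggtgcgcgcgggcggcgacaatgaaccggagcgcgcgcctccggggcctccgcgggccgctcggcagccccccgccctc
The Rarg window held AGGTCA 1 time, on the strand opposite to the gene, its first base 225 bases before the start. The Nr4a2 window held TGACG 4 times, at 200, 144, 123 and 111 bases before the start, and TATAAA 1 time on the opposite strand at 164 bases. None of these letters was in the Nr1h3 window. AGGTCA was present in 5 of 37 member windows (13.5%), against 13.8% of the windows of all 27025 genes in the table, TGACG in 9 of 37 (24.3%), against 17.8%, and TATAAA in 6 of 37 (16.2%), against 13.0%. GC made up 74.4% of the Rarg window, 63.2% of that of Nr1h3 and 80.0% of that of Nr4a2, with a median of 52.0% over all genes. These matches describe letters in a window and not bound sites.

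Med1 itself was checked first. Levels are normalized log2 intensities, and changes are KO minus CON on that scale with their standard error (SE). The 1 tested Med1 probe had 5.85, 5.70 and 6.12 on the KO arrays, against 7.08, 6.80 and 6.67 on the CON arrays, so that all KO arrays were lower (change -0.96 ± 0.15, limma adjusted p = 0.00176). Without background correction the Med1 change was -0.47 (adjusted p = 0.000503). Where the probe lies against the floxed exons is not known here, so it does not by itself check the deletion. Correlations over the 10386 tested probes were 0.989 to 0.994 within a group and 0.965 to 0.968 between the groups, and each array detected 9866 to 10636 probes. The label keratinocyte was matched by its markers, since all 7 basal markers (Krt5, Krt14, Krt15, Col17a1, Itga6, Itgb4 and Trp63) were detected on all 6 arrays. Of the markers of cells that could be mixed in, Cd3d, Cd3e, Cd3g and Cd247 of T cells and Cd207 and Cd74 of Langerhans cells were detected on all arrays, and Ptprc of T cells and Itgax of Langerhans cells on none. Of the fibroblast markers Dcn and Fbln1 were detected on all arrays and both fell, and Col1a1, Col1a2, Col3a1, Lum and Pdgfra were detected on none. Of the smooth muscle markers Acta2 was detected on all arrays and rose (change 0.97 ± 0.10, limma adjusted p = 0.000248), and Myh11, Tagln, Des and Cnn1 were detected on none. Of the endothelial markers Tek was detected on 2 KO arrays and 1 CON array, and Pecam1, Cdh5 and Emcn on none. Summed over the tested markers of a list, the linear level was 218 to 294 in KO, against 365 to 470 in CON, for fibroblasts and 2215 to 2629 in KO, against 1807 to 2010 in CON, for T cells. In bulk RNA, fewer cells of a type and less RNA per cell cannot be told apart.

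Most nuclear receptor genes were not above background in these keratinocytes. A probe counted as detected on an array if its detection p, which sets it against negative control beads, was below 0.01, and it was tested if at least 3 of the 6 arrays detected it, whatever their group. Of the 37 members on the array, 11 were tested (29.7%), where 45.0% of all named genes were. The other 26 were not detected on any array, 18 of them with 1 probe and 8 with several. These 26 include Rara and Rarb, receptors of retinoic acid, Rxrg, the fatty acid receptors Ppara and Ppard, Nr3c1, the glucocorticoid receptor, Pgr, the progesterone receptor, and both estrogen receptors, Esr1 and Esr2. Thrb, a thyroid hormone receptor, Nr1i2 and Nr1i3, which sense xenobiotics, Nr1h4, the bile acid receptor, Esrrb and Esrrg, Rorb, Hnf4a, Nr2c1, Nr2c2, Nr2f1, Nr2f2, Nr4a3, Nr5a1, Nr5a2, Nr0b1 and Nr0b2 make up the rest. Their undetected probes had levels of 4.19 to 5.12, and the lowest signal of a detected probe was 5.09 to 5.33 per array. This bounds what these probes could show and does not show that the genes are silent, because a gene with 1 probe rests on how well that probe binds. The single Nr3c1 probe, for example, had detection p-values of at least 0.0539, and those of Ppard were at least 0.258. The lowest detection p among the 26 was 0.0125, for an Nr2f2 probe on KO replicate 2 alone. Only Hnf4a and Nr2c1 had a detection p below 0.05 on 3 arrays. With that looser limit the changes of Hnf4a and Nr2c1 were 0.02 ± 0.14 (95% interval -0.30 to 0.34) and 0.19 ± 0.15 (-0.15 to 0.53).

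**Figure D1:**
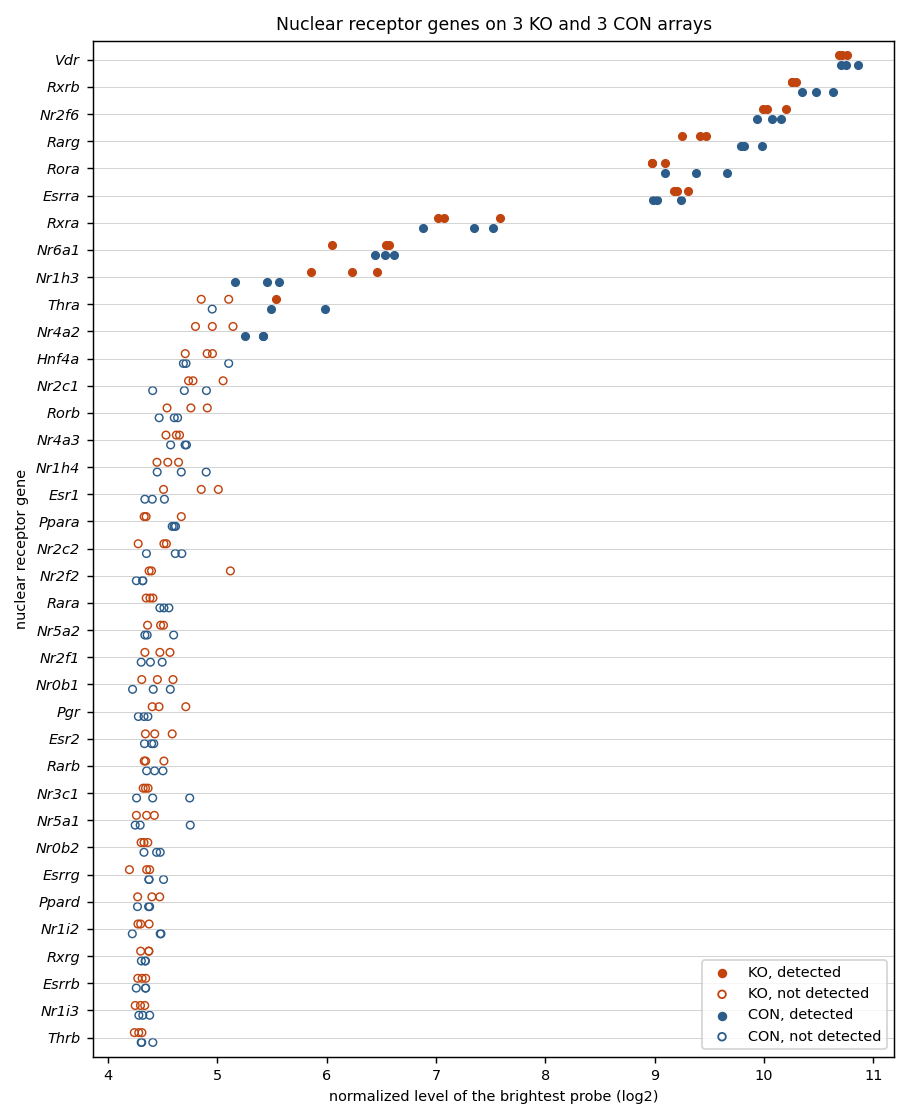
Normalized log2 level of the brightest probe of each of the 37 nuclear receptor genes on the array (x axis), with 1 row per gene, KO arrays above CON arrays, and filled points for arrays that detected the probe. Levels can be compared between arrays within a row and not between rows, since probes differ in binding. The 26 undetected genes lie at 5.12 or below with open points alone, next to them are Thra and Nr4a2 with open and filled points, and the other 9 tested genes have filled points alone.

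Of the 11 tested members, 1 rose (Nr1h3) and 2 fell (Rarg and Nr4a2) in KO at a limma adjusted p below 0.05. That is 27.3% of those tested. Of all tested probes 27.4% were called, and of the 7461 tested genes 28.8%, with 14.1% higher and 14.7% lower, so the share of called members was near the background. Nr4a2 entered the test through the CON arrays alone, a filter that favours a fall. With detection required on every array, 9 members were tested, of which 1 rose (Nr1h3) and 1 fell (Rarg). The median change was -0.14 over the 11 members and -0.0017 over all genes, and the median size of the change was 0.21 over the members and 0.22 over all genes. KO and CON arrays did not overlap for 4 members (Nr1h3, Rarg, Nr4a2 and Rxrb), as for 45.2% of all genes. Where a gene had several tested probes, the brightest on average stands for it.

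**Figure D2:**
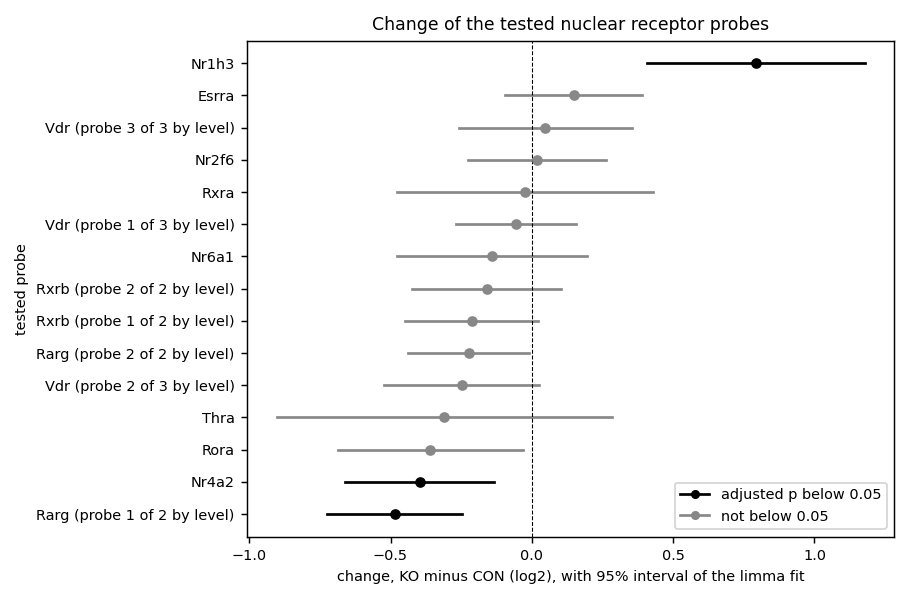
Change in KO minus CON (log2, x axis) of the 15 tested probes of 11 nuclear receptor genes, with 95% intervals of the limma fit. Black marks an adjusted p below 0.05. Nr1h3 (0.79) lies alone on the right, and the brighter Rarg probe (-0.49) and Nr4a2 (-0.40) are the called probes on the left.

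The retinoic acid receptors were represented by Rarg, the subtype known as the main one of epidermis. Its brightest probe had 9.25, 9.47 and 9.41 on the KO arrays, against 9.81, 9.98 and 9.79 on the CON arrays. The highest KO array was below the lowest CON array, and the level fell 1.40-fold (change -0.49 ± 0.10, limma adjusted p = 0.00966). A second tested Rarg probe, which the annotation pairs with the same transcript, had 7.40, 7.44 and 7.31 in KO, against 7.61, 7.66 and 7.54 in CON. The groups were again apart, but the change of -0.22 ± 0.09 did not pass the test (adjusted p = 0.114). Before normalization the groups of this second probe overlapped, at 217, 269 and 264 in KO, against 328, 286 and 251 in CON. The third Rarg probe was not detected on any array. The Rarg call ended with median scaling of the arrays (adjusted p = 0.0787, change -0.48) and held in the 17 other alternatives. Markers of basal keratinocytes were lower in the same arrays: 5 of 7 tested fell, with a summed linear level of 66334 to 67472 in KO, against 86622 to 91388 in CON. Krt14 had the same normalized value on all 6 arrays and could not change, and without it 5 of 6 fell, with sums of 39140 to 40278 in KO, against 59428 to 64194 in CON. Over all tested genes 14.7% fell and 14.1% rose. Fibroblast (2 of 2 tested), melanocyte (3 of 4) and Langerhans cell (3 of 4) markers fell as well. Of 5 tested suprabasal keratinocyte markers 1 rose (Ivl) and 0 fell, with sums of 31079 to 33711 in KO, against 31900 to 33210 in CON. The part of any of these markers in the Rarg result was not tested.

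Of the retinoid X receptors, the shared partners of the heterodimers, Rxra and Rxrb were tested and neither passed. Rxrb had 10.26, 10.30 and 10.25 in KO, against 10.34, 10.47 and 10.63 in CON. Every KO array was below every CON array, by a change of -0.21 ± 0.10 (95% interval -0.45 to 0.02, limma adjusted p = 0.166). A second Rxrb probe gave -0.16 ± 0.12 (adjusted p = 0.349) with overlapping groups. Rxra had 7.59, 7.08 and 7.02 in KO, against 7.52, 6.88 and 7.35 in CON. Its groups overlapped, and the change of -0.02 ± 0.20 had an interval of -0.48 to 0.43 (adjusted p = 0.944), wide enough to hold most of the shift seen for Rarg.

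The vitamin D receptor gene Vdr was measured by 3 tested probes and none passed. The brightest had 10.71, 10.68 and 10.76 in KO, against 10.75, 10.86 and 10.71 in CON. These overlapped, and the change of -0.06 ± 0.09 had a 95% interval of -0.27 to 0.15 (limma adjusted p = 0.698), which does not reach a shift as large as that of Rarg's brightest probe. A second probe changed by -0.25 ± 0.12 (adjusted p = 0.162), with an interval of -0.52 to 0.02 that does reach such a shift, and the third by 0.05 ± 0.13 (adjusted p = 0.828), so the 3 probes did not share a direction.

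Nr1h3, which encodes the oxysterol receptor LXRα, a regulator of cholesterol efflux and lipid synthesis known from liver, macrophages and lipid-rich cells, was the 1 member that rose. Its probe had 6.23, 6.46 and 5.86 in KO, against 5.16, 5.45 and 5.56 in CON. The lowest KO array was above the highest CON array, and the level rose 1.73-fold (change 0.79 ± 0.17, 95% interval 0.41 to 1.18, limma adjusted p = 0.00916). Before normalization the intensities were 144, 177 and 150 in KO, against 132, 130 and 128 in CON, which is close to background although all 6 arrays detected the probe. Without background correction the change was therefore 0.31 (adjusted p = 0.00926). A second Nr1h3 probe was not detected on any array. Sebocyte markers moved with it: Cidea and Mgst1, detected on all 6 arrays, rose, and so did Awat2 and Elovl3, which entered the test through the KO arrays alone. The summed linear level of these sebocyte markers was 4093 to 4176 in KO, against 969 to 1097 in CON, while Far2 and Fasn were not detected. Acta2 of smooth muscle and 2 of 4 tested T cell markers also rose, and 0 T cell markers fell. Over all tested genes 14.1% rose. The part of these markers in the Nr1h3 result was not tested. Pparg, the fatty acid receptor of sebocytes and adipocytes and not among the 40 members, was higher in KO as well (change 2.42 ± 0.16, adjusted p = 2.78e-05, and 1.42 without background correction).

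Nr4a2 (Nurr1), an orphan receptor induced early after stimulation, was detected on all 3 CON arrays and on 0 of 3 KO arrays. Its level was 5.14, 4.95 and 4.80 in KO, against 5.42, 5.41 and 5.26 in CON. The groups did not overlap, and since KO arrays were not well above background the fall is given as a bound of at least 1.09-fold (fitted change -0.40 ± 0.12, limma adjusted p = 0.0338). The bound sets the CON mean against, on each KO array, the higher of the probe's own signal and the lowest signal of any detected probe. Raw intensities were 114, 119 and 115 in KO, against 141, 129 and 120 in CON. This call passed in 6 of the 17 alternatives that could test it and ended without KO replicate 2 (adjusted p = 0.0920) or 3 (0.116) and without CON replicate 1 (0.0864) or 2 (0.0834). It also ended without background correction (change -0.12, adjusted p = 0.214). Melanocyte markers were lower in the same arrays (3 of 4 tested fell, summed linear level 337 to 358 in KO, against 678 to 729 in CON, with Tyr and Mitf not detected), and so were those of Langerhans cells (3 of 4 fell, 2821 to 3111 in KO, against 4599 to 5291 in CON). Basal keratinocyte and fibroblast markers fell too, as given above, and over all tested genes 14.7% fell. The part of these markers in the Nr4a2 result was not tested.

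**Figure D3:**
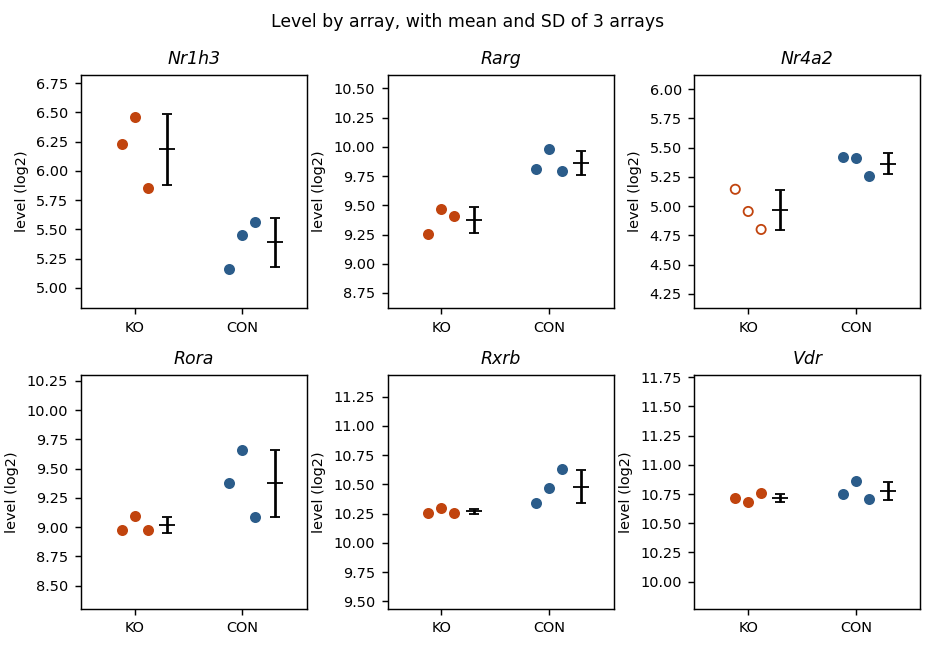
Normalized log2 level (y axis, a span of 2 in each panel) of 6 nuclear receptor genes on each KO (left) and CON (right) array, with the mean and SD of 3 arrays as a bar beside the points and open points where the array did not detect the probe. Nr1h3 is higher in KO, Rarg and Nr4a2 are lower, Rora overlaps between the groups, and Vdr differs by 0.06 between the means.

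The other tested members did not pass. Rora, a receptor of the ROR group that acts without a partner, had 8.97, 9.09 and 8.98 in KO, against 9.37, 9.66 and 9.09 in CON. CON replicate 3 lay next to the highest KO array, and the groups overlapped (change -0.36 ± 0.14, limma adjusted p = 0.0993), and without it the change was -0.50 with an adjusted p of 0.0268. Without CON replicate 2, the highest of the CON arrays, the Rora change was -0.22 (adjusted p = 0.254). Esrra, the estrogen-related receptor of mitochondrial gene programs, had 9.18, 9.31 and 9.20 in KO, against 9.02, 9.24 and 8.98 in CON, with overlap (change 0.15 ± 0.11, adjusted p = 0.341). Nr2f6, an orphan of the COUP-TF group, had 10.02, 10.20 and 9.99 in KO, against 9.93, 10.16 and 10.07 in CON. Its change of 0.02 ± 0.11 had an interval of -0.22 to 0.26 (adjusted p = 0.921). A second Nr2f6 probe was detected on 1 CON array alone and was not tested. It had 4.65, 4.48 and 4.87 in KO, against 5.71, 5.21 and 4.93 in CON. These groups did not overlap. The share of 45.2% given above is over genes by their brightest tested probe, and no such share was computed for untested probes. Nr6a1, the germ cell nuclear factor, had 6.57, 6.54 and 6.05 in KO, against 6.54, 6.61 and 6.44 in CON, where KO replicate 3 was the lowest value (change -0.14 ± 0.15, adjusted p = 0.525). Thra, a thyroid hormone receptor, was detected on 1 KO and 2 CON arrays. It had 5.54, 5.10 and 4.85 in KO, against 5.49, 4.95 and 5.98 in CON, and its interval of -0.90 to 0.28 was the widest of the 11. The 95% intervals of the 8 members not called reached 0.21 to 0.59 to either side of the change.

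Genes that the receptors are known to regulate were taken as 8 lists, to set the receptor levels beside those of their targets, and most of these genes have other regulators too. Over all tested genes 14.1% rose and 14.7% fell, which is the background for each count below. The targets of retinoic acid held 3 tested genes of 7 on the array and all 3 rose: Hbegf, an EGF family ligand (change 1.24 ± 0.10, limma adjusted p = 5.74e-05), Crabp2, which carries retinoic acid to its receptors (0.72 ± 0.10, adjusted p = 0.00109), and Tgm2, a transglutaminase (0.81 ± 0.19, adjusted p = 0.0151). Tgm2 was detected on 3 KO arrays and 1 CON array, and its call ended without KO replicate 3 (adjusted p = 0.0554) and with the methods' t-test, a plain test for each probe (0.111). With the looser detection limit Stra6, the gene of a retinol transporter, was lower in KO (change -0.70 ± 0.11, adjusted p = 0.00305), with 0 KO arrays and 1 CON array detecting it at the stricter limit, so the list then moved both ways. Cyp26a1, Cyp26b1 and Dhrs3, which clear or reduce retinoids, were not detected on any array.

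Of 7 tested PPAR targets, 5 rose and 0 fell. Fabp5, a fatty acid binding protein, changed by 1.42 ± 0.10 (limma adjusted p = 3.22e-05), Angptl4, an inhibitor of lipoprotein lipase, by 1.05 ± 0.11 (adjusted p = 0.00023), and Pdk4, a kinase that restrains glucose oxidation, by 1.04 ± 0.11 (adjusted p = 0.000248). Pdk4 was detected on 3 KO arrays and 1 CON array, a filter that favours a rise. Over the alternatives the change was 0.72 to 1.46 for Fabp5, 0.70 to 1.11 for Angptl4 and 0.40 to 1.08 for Pdk4. With detection required on every array, 5 PPAR targets were left and 3 rose. The count was 4 with median scaling, with no filter and without KO replicate 2 or 3 or CON replicate 1 or 3. The sebocyte markers given beside Nr1h3 were higher in the same KO arrays, at 4093 to 4176, against 969 to 1097 in CON, and their part in the PPAR list was not tested. Of the receptors behind this list, Ppara and Ppard were not detected while Pparg was higher, as given above. Of 6 tested LXR targets 2 rose and 0 fell, namely Lpcat3, a phospholipid remodeling enzyme (0.87 ± 0.10, adjusted p = 0.000346), and Scd1, a desaturase (0.43 ± 0.10, adjusted p = 0.0107), which median scaling ended (adjusted p = 0.0594). The cholesterol transporter Abcg1 (-0.27 ± 0.16, adjusted p = 0.259), Srebf1 (0.09 ± 0.14, adjusted p = 0.673) and Apoe (0.05 ± 0.10, adjusted p = 0.769) did not pass, and Abca1 was not detected.

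Of 10 tested glucocorticoid targets, 5 fell, 1 rose and 4 were not called. Tsc22d3, the glucocorticoid-induced leucine zipper, changed by -0.84 ± 0.09 (limma adjusted p = 0.000279) and Dusp1, a MAP kinase phosphatase, by -0.81 ± 0.09 (adjusted p = 0.00045). Fkbp5, a receptor chaperone, moved the other way, by 1.05 ± 0.18 (adjusted p = 0.00342). The Fkbp5 call ended with the methods' t-test (adjusted p = 0.0559), and its change was 0.59 to 1.26 over the alternatives. The count of lower genes was 3 without KO replicate 2, 3 without CON replicate 1 and 2 with the methods' t-test. For thyroid hormone, 2 of 3 tested targets fell, Hr, a corepressor of the hair cycle (-0.45 ± 0.10, adjusted p = 0.00881), and Klf9, which the glucocorticoid list also holds (-0.85 ± 0.23, adjusted p = 0.0275). The Klf9 call ended without any 1 of the KO arrays (adjusted p 0.0541 to 0.0834), without CON replicate 1 (0.0619) and without CON replicate 3 (0.0730), and also with no filter (0.0737), trended and robust moderation (0.0550) and the methods' t-test (0.157). The Hr call ended with median scaling (0.152).

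The remaining lists held few called genes. Of 2 tested vitamin D targets, Trpv6, a calcium channel, fell (-0.54 ± 0.12, limma adjusted p = 0.0110, but 0.0587 with the methods' t-test, and a change of -0.22 without background correction) and Cdkn1a did not pass (0.13 ± 0.10, adjusted p = 0.375), while Cyp24a1, the enzyme that degrades vitamin D, was not detected on any array. Of 3 tested estrogen receptor targets, Ccnd1, a cyclin, fell (-0.59 ± 0.10, adjusted p = 0.00353). The count that rose was 0 as reported and 0 to 1 over the alternatives. Among the same 3 tested genes it was 1 on the authors' normalized values and without background correction. It was also 1 with offset 50 and with trended and robust moderation, so the list moved both ways in these settings. With the looser detection limit Tff1 was higher in KO (0.75 ± 0.15, adjusted p = 0.00872), so this list moved both ways there too. At the stricter limit 2 KO arrays and 0 CON arrays detected Tff1. Of 8 tested targets of the estrogen-related receptors, Cox5b, a subunit of cytochrome oxidase, rose (0.41 ± 0.12, adjusted p = 0.0280). With the looser limit Ppargc1a, detected on 0 arrays at the stricter limit, was also higher (0.39 ± 0.12, adjusted p = 0.0465). The Cox5b call was lost on leaving out KO replicate 1 (adjusted p = 0.0747) or 2 (0.101) or CON replicate 1 (0.0637) or 2 (0.0840), with the replicate block (0.0598), with the methods' t-test (0.0809) and with median scaling (0.0704).

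**Figure D4:**
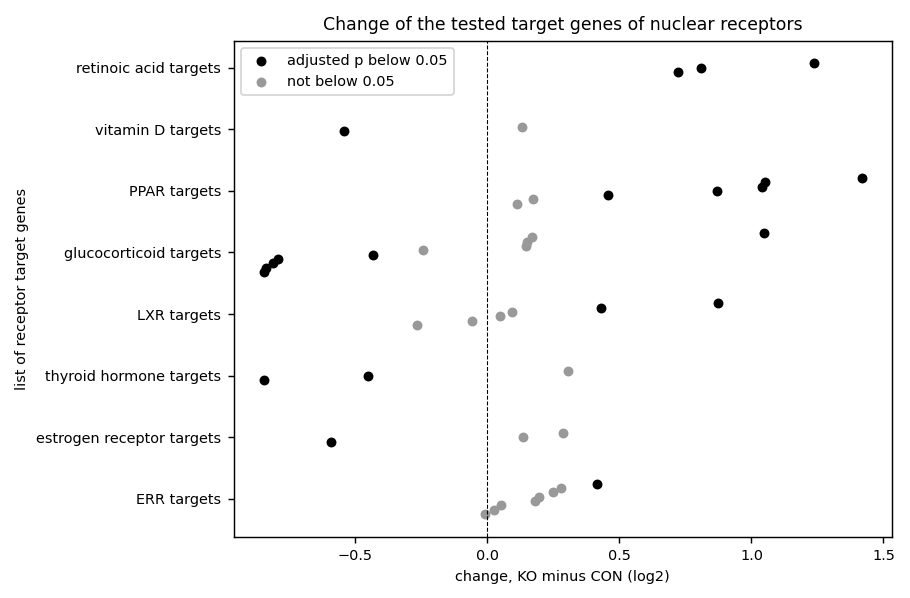
Change in KO minus CON (log2, x axis) of each tested gene in the 8 lists of nuclear receptor targets (rows), with black points for an adjusted p below 0.05. All 3 retinoic acid targets and 5 of 7 PPAR targets are black and right of 0, and 5 of 10 glucocorticoid targets are black and left of 0.

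**Figure D5:**
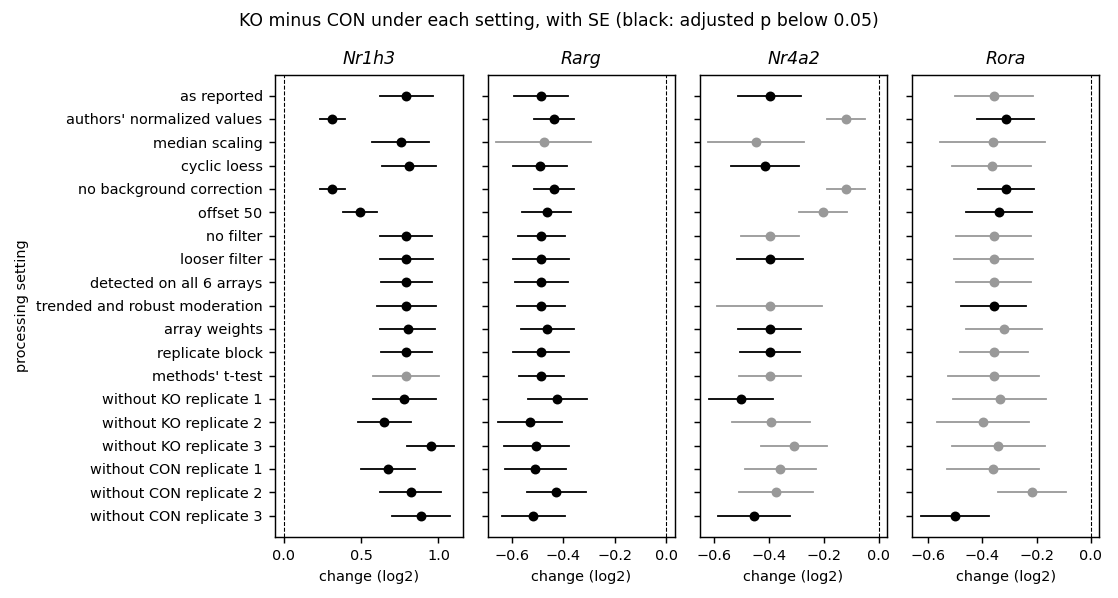
Change in KO minus CON (log2, x axis) with SE of Nr1h3, Rarg, Nr4a2 and Rora under each processing setting (rows), black where the adjusted p is below 0.05. Nr1h3 and Rarg are black in 17 of 18 alternatives, Nr4a2 in 6 of 17 and Rora in 5 of 18, and none of the 4 genes changes sign.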

How the data were processed

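Biotin-labelled total RNA of keratinocytes was read on Illumina mouse beadchips with 1 colour. The authors deposited a linear intensity and a detection p-value for each of 25697 probes on 6 arrays, summarised in GenomeStudio (version 2011.1, as the submitters' processing notes name it) with no normalization. A second deposited table holds the authors' normalized intensity values, with a median of 110.9 in its first column, and served as an alternative. Intensities were corrected and quantile normalized on the log2 scale with neqc of limma (version 3.58.1, R 4.3.3, offset 16). A larger offset pulls changes of dim probes towards 0, and the background correction enlarges them. The Nr1h3 change, for example, was 0.79 as reported, 0.49 with offset 50 and 0.31 without background correction. Probes with detection p below 0.01 on at least 3 arrays were compared by lmFit and eBayes, two-sided, KO against CON, with Benjamini-Hochberg adjustment over all tested probes. The code was tested on simulated data. Median intensities were 105.7 to 117.3, but fewer probes were detected than not, so the median lies among undetected probes. It does not compare the arrays at brighter probes. The brightest Rarg probe, for example, had raw intensities of 572, 831 and 861 in KO, against 1177, 1062 and 876 in CON. The number of arrays limits the precision. Platform annotation named 23978 probes and left 1719 unnamed here, and 23962 matched RefSeq (GRCm38.p6) by Entrez ID with 0 symbols changed. Promoter windows came from RefSeq for 37 members.

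Members, lists and tests were chosen with earlier results of these data known. All members are accounted for, and at most 3 genes a target list, those with the smallest adjusted p, are named for a change that passed. The other genes named from the target lists, namely those that did not pass, were not detected or passed only with the looser limit, were chosen after their values were seen. Protein sequences were not used here.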

Additional observations from a re-analysis of the deposited data

How the results depend on the processing

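Across 18 alternatives, run for each of the 11 tested members and Med1, 188 of 214 values kept their direction and side of the threshold, 13 lost the call, 5 gained it and 8 changed sign. Counts over all probes were 2848 called as reported, 1689 with median scaling, 1896 with the methods' t-test and 2055 to 2539 with 1 array left out. Of the called probes 49% were higher as reported and 46.7% to 50.7% over the alternatives. Of the members, 1 rose as reported and in each array left out, and 0 with the methods' t-test (Nr1h3 adjusted p = 0.0808). That t-test was run on the values normalized here and not on the authors' normalized values. It called 1499 probes at an unadjusted p below 0.005. Members that fell numbered 2 as reported, 0 with median scaling, 1 with no filter, 1 with detection required on every array (Nr4a2 could then not be tested), 1 with the methods' t-test, and 1 to 3 with 1 array left out. Changes of sign occurred among members that were not called, for Nr2f6 with cyclic loess (-0.0059), Nr2f6 without KO replicate 2 or CON replicate 1 (-0.046 and -0.042), Rxra without KO replicate 2 or 3 (0.05 and 0.08) or CON replicate 1 or 3 (0.11 and 0.03), Nr6a1 without KO replicate 3 (0.03) and the third Vdr probe without KO replicate 1 or CON replicate 1 (-0.061 and -0.029). Leaving out 1 array gave ranges of -0.046 to 0.070 for Nr2f6, -0.21 to 0.11 for Rxra, -0.23 to 0.03 for Nr6a1 and -0.061 to 0.14 for the third Vdr probe.

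The labels do not say whether same-numbered arrays of the 2 groups were paired. Their deviations from the group means correlated at -0.03, 0.07 and -0.05, which shows no shared part but cannot exclude pairing. With the replicate number as a block 2528 probes were called, 1 member rose (Nr1h3) and 2 fell (Nr4a2 and Rarg), and among the target genes only the Cox5b call ended. Rora gained a call on the authors' normalized values (adjusted p = 0.0329), without background correction (0.0329), with offset 50 (0.0486) and with trended and robust moderation (0.0282). The cause of these changes was not tested. Dim members set the limit: no more than a bound can be given for Nr4a2, and none for the 26 undetected genes. The alternatives for target genes, Med1, Pparg and further probes, and the sum without Krt14, were chosen after seeing the data.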
